A study of Homo sapiens with 6 samples.

Results

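The 39 genes described here encode the machinery that sorts receptors on endosomes: the ESCRT complexes with their disassembly factors and deubiquitinases, the CBL ubiquitin ligases, the tether EEA1, and the retromer with its sorting nexins. They were listed by function, and their probe sets were found by gene symbol among 54613 probe sets, of which 41091 carried 1 symbol, for 19775 genes. For each gene, the brightest probe set that carried its symbol alone (by its mean on all 6 arrays) gave the value, and 36 of the 39 genes had one. CHMP4A, PDCD6IP (ALIX) and VTA1 were not analysed here. The 36 genes had 78 probe sets in all, and 2 more carried HCRP1, an older symbol of VPS37A, under an identifier of its own and are given apart.

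MCF-10A cells come from normal human breast epithelium, grow without limit in culture but form no tumours, and need EGF. The cells had been infected with a retrovirus carrying CRB3 (Crumbs3), a small transmembrane protein of the apical polarity complex, or with the pNG vector alone, and both populations were selected with puromycin. Total RNA was taken from growing monolayers at 70% confluence in normal growth medium, and 3 CRB3-expressing and 3 vector control samples were hybridized to Affymetrix U133 Plus 2.0 arrays. The labels name no separate infections or cultures for the 3 samples of a group, so the p-values measure the spread between these samples, which may be technical.

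An activated receptor such as EGFR is tagged with ubiquitin by CBL ligases and taken into early endosomes, whose fusion is helped by the tether EEA1. There, ESCRT-0 gathers the tagged cargo, ESCRT-I and ESCRT-II bud the membrane inward, ESCRT-III filaments cut the vesicle off, and the ATPase VPS4 takes the filaments apart. The deubiquitinases USP8 and STAMBP (AMSH) remove the tag, and retromer and the sorting nexins draw other receptors out of the endosome for return to the cell surface or the Golgi. CRB3-expressing cells were compared with vector control cells in a study of EGFR ligand release and of endocytic vesicles, so the comparison asks whether the transcripts of this sorting machinery differed between them.

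The log2 value of CRB3 itself averaged 12.11 ± 0.10 (SD, n = 3) with ectopic CRB3 and 7.78 ± 0.17 (n = 3) with vector alone. Of the basal mammary markers, 7 of 9 were measured, and all 7 had mean log2 values of at least 9.06 in vector control cells. The luminal keratin KRT8 and the basal keratin KRT14 were 2.12-fold and 3.57-fold higher in CRB3-expressing cells (limma adjusted p = 0.000102 and 5.93e-06), and of the general epithelial markers KRT19 lay under 6. CDH3, EPCAM and KRT18 were 1.316-fold, 1.304-fold and 1.285-fold higher (limma adjusted p = 0.00943, 0.0148 and 0.0110), and CDH1 is given below with the cargo. The basal marker ITGA6 was 1.284-fold lower (limma adjusted p = 0.0388). The basal markers KRT5, EGFR, ITGB4 and LAMB3 differed by at most 1.028-fold in either direction. Of the fibroblast markers, 4 of 7 lay under 6, COL1A1 (8.01), DCN (7.68) and THY1 (6.79) lay above it in vector control cells, and DCN was 1.69-fold lower with CRB3 (limma adjusted p = 0.00249). Of the leukocyte markers, PTPRC (CD45) lay at 4.16 and CD3E at 5.10 but CD14 at 8.32, and of the endothelial markers, CDH5 lay at 4.16 and KDR at 4.58 but PECAM1 at 6.61 and VWF at 6.10. The part of these marker differences in the values below was not tested. The medians of the 6 arrays lay between 5.84 and 5.88, and arrays of a group correlated at 0.9974 to 0.9978 over all probe sets, against 0.9942 to 0.9959 between groups. One array stood somewhat apart, since the hybridization controls of vector control replicate 1 averaged 11.05, against 10.60 to 10.84 on the other arrays. On that array, 26 of the 36 sorting genes lay below the mean of the other 2 vector control arrays, and the median deviation of all 36 was -0.06.

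On these arrays, no measured sorting gene differed by as much as 1.5-fold between CRB3-expressing and vector control cells. None of the 36 genes and none of the 78 probe sets passed both thresholds of the study's methods (limma adjusted p below 0.05, more than 1.5-fold) in either direction. Over all genes, 1.43% passed as higher and 0.465% as lower, and over all probe sets 0.948% and 0.363%. Among the 12307 genes with a mean log2 value of at least 6, as all 36 sorting genes had, the shares were 2.1% and 0.683%. At any fold, 1 gene passed on the adjusted p, the ESCRT-III gene CHMP1B, which was 1.21-fold higher, and none passed as lower. The background was 3.37% of all genes higher and 1.77% lower (4.84% and 2.62% of those with a mean of at least 6). At an unadjusted p under 0.05, 7 of the 36 genes (19.4%) were higher, against 10.4% of all genes and 12.7% of those with a mean of at least 6. The 1 lower gene (2.78%), USP8, stood against 8.39% and 11.4%.

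The log2 fold changes, always CRB3-expressing minus vector control, ran from -0.18 (USP8) to 0.28 (CHMP1B), with a median of 0.04 and a median size of 0.11. Over all genes the median was 0.01 and the median size 0.08. A fold change above 0 was seen in 23 of the 36 genes (63.9%), against 52.3% of all genes and 49.6% of those with a mean of at least 6. The 95% interval lay inside a 1.5-fold change in both directions for 36 of 36 sorting genes and for 78 of 78 of their probe sets, against 95.9% of all genes, 94.5% of those with a mean of at least 6 and 96.1% of all probe sets. Among the 36 genes, the intervals reached down to -0.41 (EEA1) and up to 0.50 (STAM2) on the log2 scale, where a 1.5-fold change is 0.58. Among the 78 probe sets, the lowest bound was -0.48, for another EEA1 probe set. In these mixed RNA samples, fewer cells with a transcript and less of it per cell cannot be told apart.

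**Figure D1:**
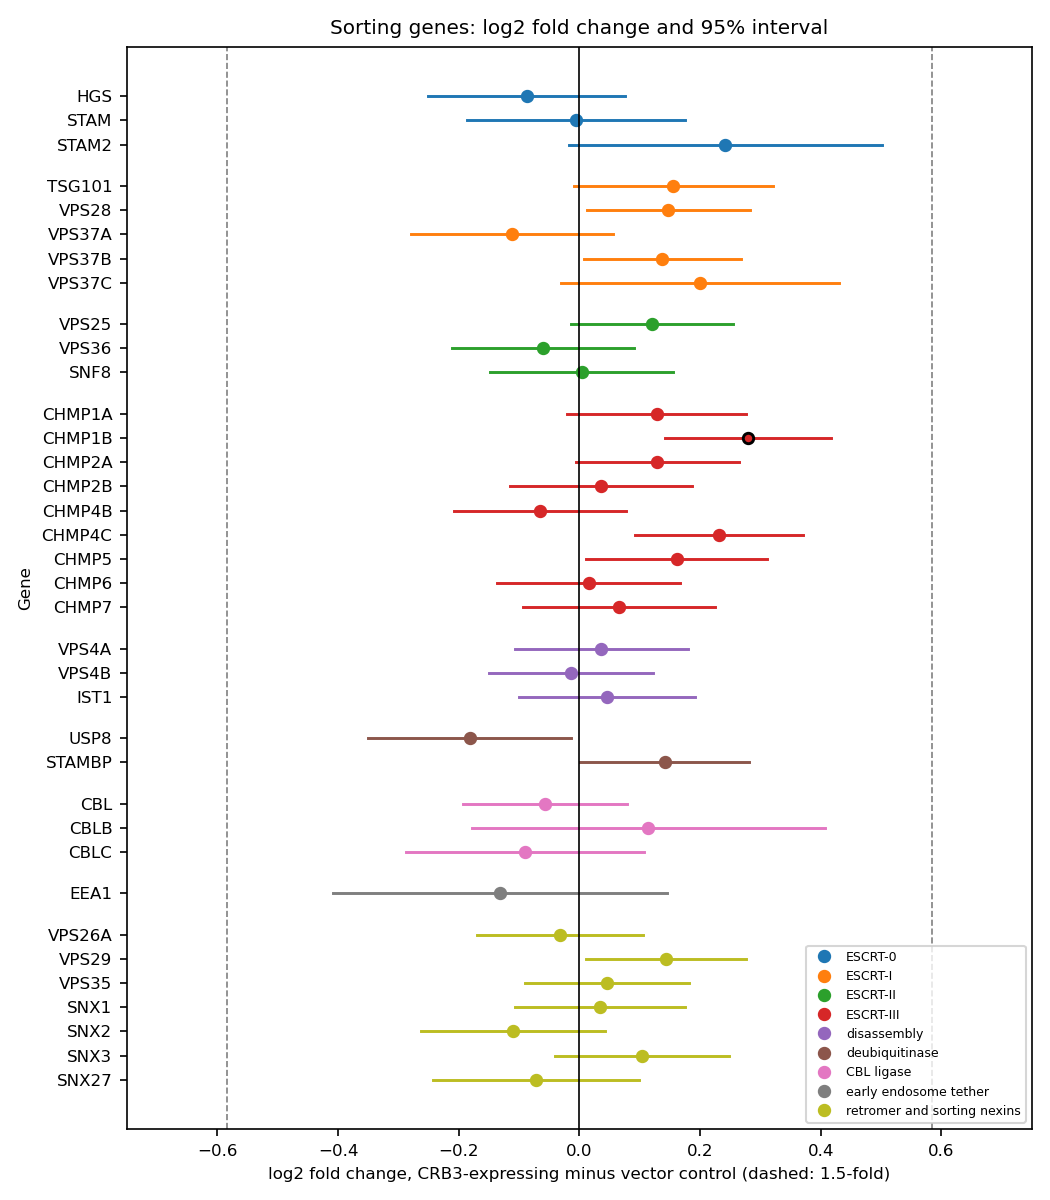
Log2 fold change (x axis, CRB3-expressing minus vector control) of the brightest probe set of each of the 36 measured sorting genes (y axis), coloured by role, with 95% intervals from limma. Dashed lines mark a 1.5-fold change, and the black ring marks CHMP1B, the 1 gene with an adjusted p under 0.05. All 36 intervals lie between the dashed lines.

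The ordering of single arrays was less even. In 12 of the 36 genes (33.3%), all 3 CRB3-expressing arrays lay above all 3 vector control arrays, while this held for 14.5% of all genes and for 18.1% of those with a mean of at least 6. In no sorting gene did the CRB3-expressing arrays all lie below, against 12.1% and 16.5%. Of the 12 genes, 5 belonged to ESCRT-III (of 9 measured), 3 to ESCRT-I (of 5) and 1 to ESCRT-II (of 3). Another 2 belonged to the retromer and sorting nexins (of 7) and 1 to the deubiquitinases (of 2). A gene ordered this way stays so when any array is left out, so leaving out arrays could not lower this count and does not test it. With each array left out in turn it was 12 to 15 sorting genes, against 18.3 to 21.2% of all genes. The count at an unadjusted p can fall, and it fell from 7 to between 2 and 5 genes. It was 2 without CRB3-expressing replicate 1 or replicate 2, a smaller share than the 9.28% and 8.66% of all genes in those settings. The count was 3 without vector control replicate 1 or replicate 2 (8.39% and 10.3% of all genes), so the share of sorting genes was again no higher than that of all genes. It was 4 without CRB3-expressing replicate 3 (9.59%) and 5 without vector control replicate 3 (9.19%). Without vector control replicate 1, the median log2 fold change of the 36 genes was 0.01, against 0.04 on all arrays.

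**Figure D2:**
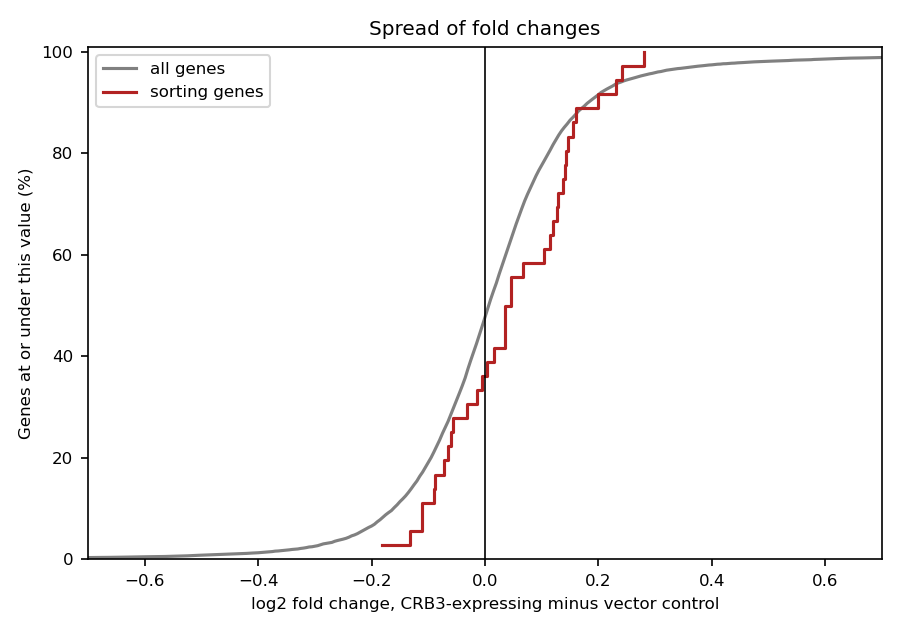
Cumulative share of genes (y axis, percent) at or under each log2 fold change (x axis, CRB3-expressing minus vector control) for the 36 sorting genes and all 19775 genes. The sorting genes range from -0.18 to 0.28, while 23 of the 36 and 52.3% of all genes lie above 0. The x axis leaves out values beyond 0.7.

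ESCRT-III held the 1 gene that passed. CHMP1B, a late ESCRT-III subunit that recruits the microtubule-severing protein spastin and VPS4, had log2 values of 10.75, 10.79 and 10.73 on the CRB3-expressing arrays and 10.43, 10.49 and 10.52 on the vector control arrays. The groups did not overlap. CHMP1B was higher by 0.28 ± 0.06 (SE) on the log2 scale, with a 95% interval of 0.14 to 0.42 and a limma adjusted p of 0.0414. A second CHMP1B probe set was higher by 0.19 ± 0.07, again with no overlap, at an adjusted p of 0.207. The call on CHMP1B was lost whenever 1 of the 6 arrays was left out, where its limma adjusted p lay between 0.0800 and 0.141, and its log2 fold change stayed between 0.26 and 0.30.

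CHMP4C, a paralogue of the filament-forming CHMP4 subunits known for its part in the abscission checkpoint, came next to it. It had log2 values of 8.85, 8.79 and 8.86 in CRB3-expressing and 8.55, 8.62 and 8.64 in vector control samples. Its arrays did not overlap, and its log2 fold change of 0.23 ± 0.06 had an adjusted p of 0.0891 by limma. CHMP5, a regulatory subunit that binds the VPS4 cofactor LIP5, had values of 10.93, 10.84 and 10.84 against 10.63, 10.72 and 10.77. The lowest CRB3-expressing array lay just above the highest vector control array, and the log2 fold change was 0.16 ± 0.07 with an adjusted p of 0.273. A second probe set of CHMP5 differed by 0.24 ± 0.07 at an adjusted p of 0.119.

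Among the other 6 ESCRT-III genes, log2 fold changes ran from -0.07 (CHMP4B, the main filament subunit) to 0.13. CHMP1A and CHMP2A, of which the second recruits VPS4, each differed by 0.13 with no overlap between the groups, at adjusted p values of 0.385 and 0.331. CHMP2B (0.04), CHMP6 (0.02) and CHMP7 (0.07), the last of which works at the nuclear envelope, overlapped between the groups. In all, 8 of 9 ESCRT-III genes (88.9%) had a fold change above 0, and their median was 0.13. The background above 0 was 52.3% of all genes and 49.6% of those with a mean of at least 6. ESCRT-III was not alone in this, since 4 of 5 ESCRT-I genes were above 0, with a median of 0.15.

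**Figure D3:**
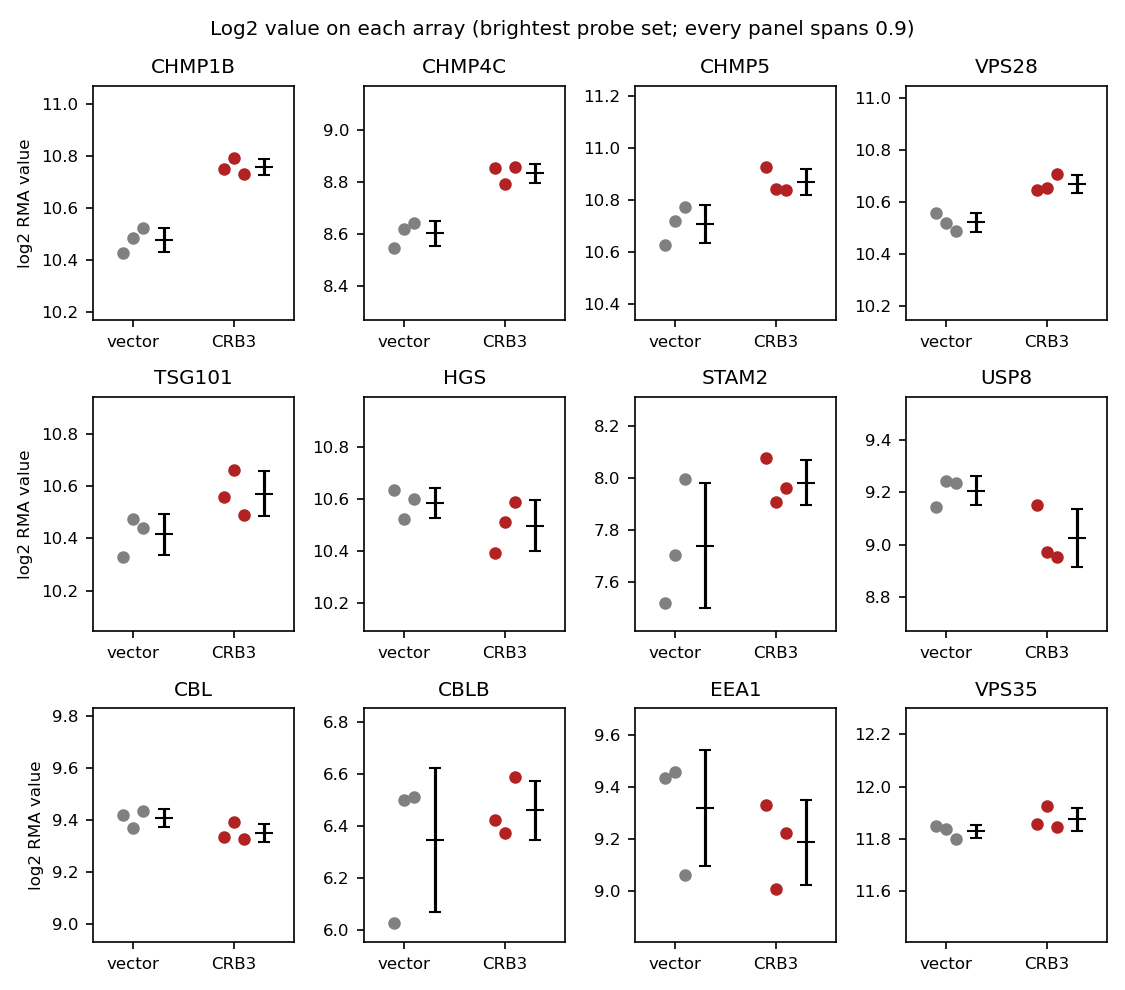
Log2 value (y axis) of 12 sorting genes on each array, for vector control (grey) and CRB3-expressing (red) samples, with replicates 1 to 3 from left to right and black bars for the mean ± SD (n = 3). Every panel spans 0.9 on the log2 scale and is centred on its own gene, so levels are not to be compared between panels. CHMP1B, CHMP4C, CHMP5, VPS28 and TSG101 show no overlap between the groups, and the other 7 genes do.

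The promoter of CHMP1B is shown with those of VPS37B and EEA1, as the gene that passed, the other sorting gene whose promoter held the same cAMP response element, and the early endosome tether. RefSeq windows of 300 bases (GRCh38.p14, 250 bases before the annotated start to 50 after it) matched 29 of the 39 genes, and the 250 bases before the start are printed 5′ to 3′ along the gene's strand. Capitals mark every match, on either strand, to the GC box GGGCGG, the CCAAT box CCAAT, the TATA box TATAAA, the E-box core CACGTG, the AP-1 site TGANTCA or the cAMP response element (CRE) TGACGTCA. The windows lie at chr18:11851163-11851412 (plus strand) for CHMP1B, at chr12:122896125-122896374 (minus strand) for VPS37B and at chr12:92929296-92929545 (minus strand) for EEA1.
CHMP1B: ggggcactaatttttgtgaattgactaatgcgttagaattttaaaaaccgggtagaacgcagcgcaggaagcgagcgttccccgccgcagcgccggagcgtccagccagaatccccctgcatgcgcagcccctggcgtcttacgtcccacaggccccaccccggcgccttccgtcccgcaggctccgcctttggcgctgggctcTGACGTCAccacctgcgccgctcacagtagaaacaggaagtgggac
VPS37B: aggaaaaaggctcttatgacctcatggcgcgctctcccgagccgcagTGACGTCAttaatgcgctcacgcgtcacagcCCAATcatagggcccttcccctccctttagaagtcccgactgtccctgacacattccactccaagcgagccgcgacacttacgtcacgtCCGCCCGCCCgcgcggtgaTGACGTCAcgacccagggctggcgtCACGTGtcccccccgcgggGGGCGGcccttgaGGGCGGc
EEA1: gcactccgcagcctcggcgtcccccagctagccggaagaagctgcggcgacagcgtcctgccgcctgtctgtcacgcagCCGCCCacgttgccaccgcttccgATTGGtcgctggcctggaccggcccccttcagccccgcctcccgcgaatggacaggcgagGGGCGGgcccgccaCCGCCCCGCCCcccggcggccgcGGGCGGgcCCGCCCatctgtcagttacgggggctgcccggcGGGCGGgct
CHMP1B has 1 match, a CRE at positions 205 to 212 of the line. VPS37B has 8, among them CREs at 48 to 55 and 187 to 194 and an E-box core at 212 to 217. EEA1 has 7 GC boxes, some of which touch or overlap, and a CCAAT box read on the opposite strand.

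The promoters of the sorting genes were rich in CpG. A GC box stood in 21 of the 29 windows (72.4%), against 58.9% of the windows of all genes with a single-gene probe set. The median number of CpG dinucleotides was 28 in 300 bases, against 22 for those genes, and a GC box is itself more frequent in GC-rich sequence. TATAAA was in none of the 29, against 8.76%, and CCAAT was in 8 (27.6%), against 36.1%. The E-box core was in 3 (10.3%, against 8.9%), the AP-1 site in 2 (6.9%, against 5.84%) and the CRE in 2 (6.9%, against 2.67%). The 29 windows include those of CHMP4A, PDCD6IP and VTA1, which were not analysed on the arrays. CHMP4A, PDCD6IP and VPS37B held the E-box cores. The CRE was added to the search after the sequences had been seen. A match describes letters only, and the absence of one says nothing of a factor.

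ESCRT-0 recognizes ubiquitinated cargo. Its core subunit HGS (HRS), which sits on early endosomes through a FYVE domain, had log2 values of 10.39, 10.51 and 10.59 in CRB3-expressing and 10.63, 10.52 and 10.60 in vector control samples. The groups overlapped, with a log2 fold change of -0.09 ± 0.07 (adjusted p = 0.613 by limma). Its partner STAM, an adaptor with a ubiquitin-binding domain, differed by -0.01 ± 0.08.

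STAM2, the close relative of STAM, varied widely among the vector control samples. Its values were 8.07, 7.91 and 7.96 in CRB3-expressing samples and 7.52, 7.70 and 7.99 in vector control samples, so that vector control replicate 3 lay inside the CRB3-expressing range. STAM2 differed by 0.24 ± 0.11 on the log2 scale, with a 95% interval of -0.02 to 0.50 and an adjusted p of 0.345. Its other probe sets with a mean of at least 6 gave 0.15, -0.02 and -0.03.

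ESCRT-I carries the cargo on and links it to ESCRT-II. TSG101, its central subunit, which binds ubiquitin and the motif that viruses use to bud, had log2 values of 10.56, 10.66 and 10.49 in CRB3-expressing and 10.33, 10.48 and 10.44 in vector control samples. The groups did not overlap, though the nearest arrays were almost level. The log2 fold change of TSG101 was 0.16 ± 0.07, with a 95% interval of -0.01 to 0.32 and a limma adjusted p of 0.337.

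VPS28, which joins ESCRT-I to ESCRT-II, was 10.65, 10.65 and 10.71 against 10.56, 10.52 and 10.49. Both this gene and VPS37B were separated between the groups, with log2 fold changes of 0.15 and 0.14, and neither passed (limma adjusted p = 0.266 and 0.283). The VPS37 paralogues are alternative subunits of the complex, and they did not share a direction. VPS37C had 0.20 ± 0.10 and VPS37A -0.11 ± 0.07, with overlapping groups in both. The 2 probe sets named HCRP1 had -0.04 and -0.16, also with overlap.

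The 3 ESCRT-II genes, which bridge ESCRT-I to ESCRT-III, lay between -0.06 (VPS36) and 0.12 (VPS25), with SNF8 at 0.00. VPS25, the subunit that contacts CHMP6, was 10.62, 10.63 and 10.64 in CRB3-expressing and 10.47, 10.55 and 10.51 in vector control samples. Its groups did not overlap, at an adjusted p of 0.363. Of the disassembly factors, the ATPases VPS4A and VPS4B and their regulator IST1 lay between -0.01 and 0.05 with overlapping arrays.

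The 2 deubiquitinases lay on opposite sides of 0, and neither passed. USP8, which acts on EGFR and on ESCRT-0 itself, had log2 values of 9.15, 8.97 and 8.95 in CRB3-expressing and 9.14, 9.24 and 9.24 in vector control samples. CRB3-expressing replicate 1 lay above vector control replicate 1, so the groups overlapped by that pair. The log2 fold change of USP8 was -0.18 ± 0.07 (adjusted p = 0.269), and its second probe set gave -0.10. STAMBP, which cuts lysine 63-linked ubiquitin chains, was 9.44, 9.47 and 9.39 against 9.25, 9.28 and 9.34. Its groups did not overlap, and its log2 fold change was 0.14 ± 0.06 (adjusted p = 0.304). Its other probe sets gave 0.07 and -0.09.

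The CBL ligases mark activated receptor tyrosine kinases with ubiquitin. CBL had log2 values of 9.34, 9.39 and 9.33 in CRB3-expressing and 9.42, 9.37 and 9.44 in vector control samples, which overlapped through vector control replicate 2. Its log2 fold change was -0.06 ± 0.06, with a 95% interval of -0.19 to 0.08 and a limma adjusted p of 0.702. The other 3 CBL probe sets with a mean of at least 6 lay between -0.15 and -0.09, and none passed.

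CBLB, known for restraining T cell activation, had 1 probe set above 6. It read 6.42, 6.37 and 6.59 against 6.03, 6.50 and 6.51, and vector control replicate 1 lay well below the other 5 arrays. The log2 fold change was 0.11 ± 0.13 (adjusted p = 0.730), and it was -0.04 without vector control replicate 1. CBLC, an epithelial family member, was 8.02, 7.99 and 8.25 against 8.22, 8.07 and 8.24. Its groups overlapped, with -0.09 ± 0.09 (adjusted p = 0.676), while a second probe set with a mean under 6 had 0.23 (adjusted p = 0.206).

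EEA1, the Rab5 effector whose protein is the standard marker of early endosomes, varied widely between replicates in both groups. The log2 values of EEA1 were 9.33, 9.01 and 9.22 in CRB3-expressing and 9.44, 9.46 and 9.06 in vector control samples. Vector control replicate 3 and CRB3-expressing replicate 2 were the low arrays of their groups, and the ranges overlapped. The log2 fold change was -0.13 ± 0.12, with a 95% interval of -0.41 to 0.14 and a limma adjusted p of 0.659. A second probe set gave -0.20 ± 0.12 at an adjusted p of 0.483. The third, with a mean under 6, gave -0.01. None of the EEA1 probe sets was above 0. Their 95% intervals reached up to 0.14 for the brightest, 0.08 for the second and 0.43 for the third on the log2 scale.

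The retromer core is a trimer of VPS26, VPS29 and VPS35. VPS35, its scaffold, had log2 values of 11.86, 11.93 and 11.84 in CRB3-expressing and 11.85, 11.84 and 11.80 in vector control samples. The groups overlapped, and the log2 fold change was 0.05 ± 0.06 (adjusted p = 0.766 by limma). VPS29, which helps to hold regulators of Rab GTPases at the retromer, was 12.00, 11.95 and 11.93 against 11.80, 11.83 and 11.82. All its CRB3-expressing arrays were higher, with 0.14 ± 0.06 and an adjusted p of 0.270, while its second probe set gave -0.02. VPS26A lay at -0.03.

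Of the sorting nexins, SNX3, which brings retromer to early endosomes, had log2 values of 12.60, 12.66 and 12.53 in CRB3-expressing and 12.45, 12.52 and 12.51 in vector control samples. The groups did not overlap, again with nearly level arrays at the boundary. The log2 fold change was 0.10 ± 0.06 (adjusted p = 0.478), and all 4 SNX3 probe sets were above 0, from 0.04 to 0.15. SNX1 (0.03) and SNX2 (-0.11), which bend membrane into tubules, overlapped, as did SNX27 (-0.07), which returns receptors with a PDZ-binding tail to the surface. A second SNX27 probe set was the 1 of 78 whose CRB3-expressing arrays all lay below the controls, by 0.09 (adjusted p = 0.516), against a background of 10.7% of probe sets.

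Different probe sets of a gene did not always point the same way. Among the 23 genes with several probe sets, 7 had probe sets with means of at least 6 on both sides of 0: CHMP2B, SNX1, STAM2, STAMBP, VPS29, VPS35 and VPS37C. In VPS37C they ran from -0.17 to 0.22. At an adjusted p under 0.05 and any fold, 1 of the 78 probe sets was higher and none lower, against 2.24% and 1.39% of all probe sets. At an unadjusted p under 0.05, 13 (16.7%) were higher and 1 (1.28%) lower, against 8.15% and 8.16%. Over all 78, 17 (21.8%) had all CRB3-expressing arrays above the controls, against 11.1% of all probe sets. Among the 17, CHMP1B and CHMP5 each count with 2 probe sets. The share above 0 was 52.6%, against 50.4% of all probe sets. These backgrounds are not matched for level, since 65 of the 78 had a mean of at least 6, as did 26207 of all 54613. Of the 13 sorting probe sets with a mean under 6, the largest difference was that of CBLC, given above.

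**Figure D4:**
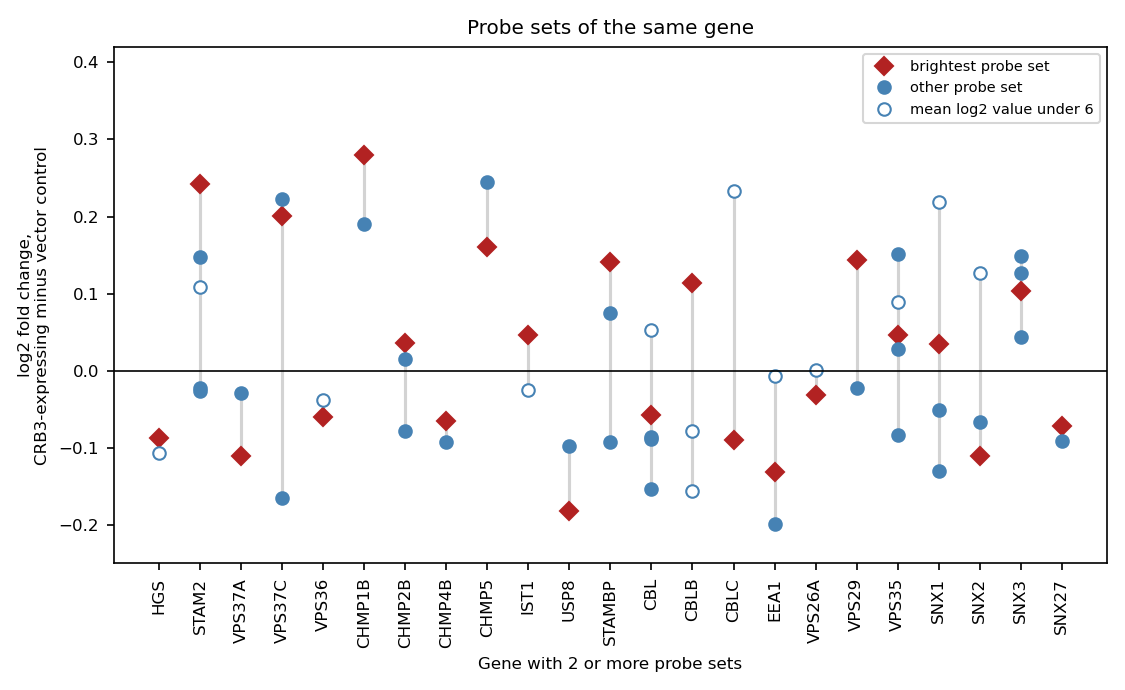
Log2 fold change (y axis, CRB3-expressing minus vector control) of each probe set of the 23 sorting genes with 2 or more (x axis). Diamonds are the brightest probe set, filled circles the others, and open circles those with a mean log2 value under 6. Of the genes, 7 have probe sets with a mean of at least 6 on both sides of 0.

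The genes that work with this machinery were read from 5 further lists, with 104 genes in all, of which 94 were measured. None of 24 measured ESCRT partners (such as ubiquitin adaptors and NEDD4-type ligases), 8 CBL partners, 19 partners of retromer, retriever and the WASH complex, or 25 early endosome genes passed both thresholds. Their median log2 fold changes were 0.04, -0.01, 0.02 and 0.07. Of 18 receptors and transporters that the machinery sorts, 2 passed as higher and none as lower. The background at both thresholds was 1.43% of all genes higher and 0.465% lower (2.1% and 0.683% of those with a mean of at least 6). The lists were chosen with earlier results of these data known, so the counts only describe them.

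Of the 8 CBL partners, 2 passed on the adjusted p at any fold, both as lower. The background was 1.77% of all genes lower, and 2.62% of those with a mean of at least 6. PIK3R1, the p85 regulatory subunit of phosphoinositide 3-kinase, had log2 values of 9.27, 9.09 and 9.12 in CRB3-expressing and 9.55, 9.68 and 9.62 in vector control samples. The groups did not overlap, and PIK3R1 fell by 0.46 ± 0.07 on the log2 scale (limma adjusted p = 0.00894). Its other probe sets gave -0.50 and -0.65, and the last of these, 1.56-fold lower, passed both thresholds (adjusted p = 0.00140). The call at any fold held in 14 of 15 alternatives and was lost with the ordinary pooled variance.

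SH3KBP1 (CIN85), an adaptor that binds CBL and endophilins as receptors are taken in, was 10.75, 10.77 and 10.67 against 11.02, 11.14 and 11.05. It too was separated between the groups, and it fell by 0.34 ± 0.06 on the log2 scale (limma adjusted p = 0.0234). Both other probe sets of SH3KBP1 also passed on the adjusted p, at -0.44 and -0.42, though the call on the brightest was lost when any 1 array was left out, with the ordinary pooled variance (adjusted p = 0.0797) and with the replicate block (0.0556). CD2AP, a relative of SH3KBP1 in the same list, had -0.14 (adjusted p = 0.295). GRB2, the adaptor that couples CBL to EGFR, had 0.00. The list's largest difference in size was in the other direction and did not pass, that of the CBL-binding phosphatase UBASH3B at 0.49 (adjusted p = 0.0647), and SPRY2, an inhibitor of receptor signalling that binds CBL, had 0.24 (adjusted p = 0.114).

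In the early endosome list, FIG4, a phosphatase of the complex that makes and turns over the endosomal lipid PI(3,5)P2, had log2 values of 8.25, 8.36 and 8.23 in CRB3-expressing and 7.72, 7.99 and 7.93 in vector control samples. FIG4 rose by 0.40 ± 0.08 (limma adjusted p = 0.0375), and the call was lost with the ordinary pooled variance (adjusted p = 0.191) and on leaving out any array other than vector control replicate 2. FIG4 was the 1 of 25 genes in this list to pass on the adjusted p at any fold, against 3.37% of all genes higher. VPS33A, a subunit of the endosomal tethering complexes, had 0.25 (adjusted p = 0.0726). In the ESCRT partner list the smallest p values belonged to TOM1L2 and ARRDC1, with 0.25 and 0.23 (adjusted p = 0.0832 and 0.109). In the retromer list they belonged to CCDC22 and VPS35L, subunits tied to the retriever recycling complex, with -0.22 and 0.22 (adjusted p = 0.0977 and 0.130).

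**Figure D5:**
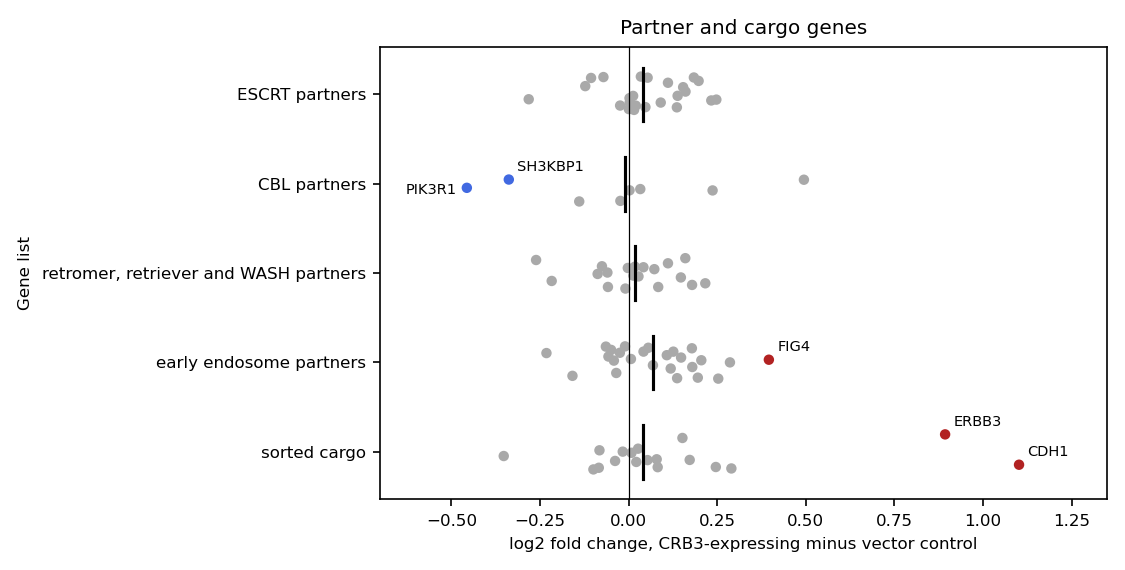
Log2 fold change (x axis, CRB3-expressing minus vector control) of the 94 measured partner and cargo genes in 5 lists (y axis, points spread vertically for legibility), with black bars for the list medians. Coloured and named points had a limma adjusted p under 0.05, red above and blue below 0. PIK3R1 and SH3KBP1 lie below 0, and FIG4, ERBB3 and CDH1 above.

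Among the sorted cargo, E-cadherin and a member of the EGFR family rose. CDH1 (E-cadherin), the adhesion receptor of epithelial junctions, had log2 values of 11.95, 11.94 and 11.98 in CRB3-expressing and 10.79, 10.87 and 10.91 in vector control samples. CDH1 was 2.15-fold higher, by 1.10 ± 0.06 on the log2 scale (limma adjusted p = 2.17e-05). ERBB3, the neuregulin receptor with a weak kinase domain, was 8.08, 8.08 and 7.87 against 7.07, 7.17 and 7.12. All CRB3-expressing arrays of both genes lay above the controls, and ERBB3 rose 1.86-fold (limma adjusted p = 0.000259), by 0.89 on the log2 scale. In the mean over its probe sets it was higher by 0.46, under the fold threshold. EGFR, the receptor whose ligand release the study followed, differed by 0.01 on the log2 scale (adjusted p = 0.967), ERBB2 had 0.29 (adjusted p = 0.0691) and the transferrin receptor TFRC had 0.08 (adjusted p = 0.568). Beside these cargo values stand the marker differences given above, with KRT8, KRT14, CDH3, EPCAM and KRT18 higher and ITGA6 and DCN lower. EGFR, ERBB2, TFRC, UBASH3B, SPRY2, CD2AP and GRB2 were named after their values had been seen.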

How the data were processed

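RNA from 3 CRB3-expressing and 3 vector control MCF-10A samples was hybridized to U133 Plus 2.0 arrays. Background correction and normalization of all arrays were done by the authors with Robust Multichip Average (rma in R/Bioconductor, version not given in the sources used here). They deposited 1 log2 value per probe set, and these deposited values were analysed unchanged. No detection calls accompany these values, so no gene was called absent, and a dim probe set may understate a change. The number of arrays limits the precision.

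The 62 control probe sets were left out, and 54613 were fitted with limma 3.58.1 in R 4.3.3 (lmFit, eBayes, CRB3-expressing minus vector control), p-values adjusted by Benjamini-Hochberg across the whole table. Probe sets were named from the platform annotation, with 0 symbols changed through Entrez identifiers in RefSeq, and those with several symbols (1801) were not named. The sorting genes and gene lists were chosen with earlier results of these data known. Full statistics were given for members with an adjusted p under 0.05, the 3 with the highest and the 3 with the lowest probe set signal, and EEA1, HGS, TSG101, CBL and VPS35, and in each list for genes past both thresholds or, with none, the 2 smallest p-values. Other genes given array by array were named after their values had been seen. The replicate numbers were checked, and same-numbered samples showed no pattern of their own, so no pairing was used. The steps were tested on simulated data.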

Additional observations from a re-analysis of the deposited data

How the results depend on the processing

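The absence of sorting genes and probe sets past both thresholds (0) held in all alternatives run on them, and the count of 2 partner and cargo genes became 3 without CRB3-expressing replicate 3 or without vector control replicate 2, and 1 with the mean over probe sets, where ERBB3 was under the fold threshold. It was also 1 without shared probe sets, which left 79 of the 94 genes and no CDH1 value; both settings were added for these lists after seeing the data. Leaving out shared probe sets left 30 of the 36 genes. The count of sorting genes with an adjusted p under 0.05 at any fold, 1 as reported, was 2 with the mean over a gene's probe sets, 3 with a mean-variance trend and robust prior, 2 among probe sets with a mean of at least 6, 0 with median-centring, 0 with ordinary pooled variance, 0 without shared probe sets, and 0 to 0 on leaving out each array. With the replicate number as a block it was 0, and 710 probe sets in all passed both thresholds, against 716. Replicate 1 samples deviated with a correlation of -0.08, replicate 2 with 0.06 and replicate 3 with 0.03. Pairs with different numbers lay between -0.19 and 0.16, so same-numbered samples showed no pattern of their own. Whether they were cultured or processed together cannot be told from these values. The causes of these shifts were not tested.

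Of the 36 sorting genes, 26 kept their direction in each alternative that gave them a value. These were 15, or 14 for VPS28, VPS37B, VPS25, CHMP2A and SNX3, which had no value without shared probe sets. The other 10 had values near 0 or probe sets that differ. Median-centring turned SNF8 to -0.0094. Quantile normalization turned STAM to 0.0005 and VPS4B to 0.0021. The mean over probe sets turned CHMP2B to -0.0095, CBLB to -0.0401 and CBLC to 0.0714. Without shared probe sets VPS37C was -0.17, IST1 -0.0246, CBLC 0.23, VPS29 -0.0231 and the partner gene VPS35L -0.0506. On leaving out each array the log2 fold change ran from -0.0728 to 0.0549 for STAM, from -0.0358 to 0.0365 for SNF8, from -0.0177 to 0.0609 for CHMP6, from -0.0352 to 0.0 for VPS4B and from -0.0446 to 0.1966 for CBLB. The largest change of any sorting gene in any alternative was 0.37, for STAM2 without vector control replicate 3. At a median standard error of 0.07, changes well under 1.5-fold could not all be told from none.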
